A study of Mus musculus with 11 samples.

Results

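Integrin and laminin chains were followed as a group of 36 genes among the 24062 gene rows of the count files, taken by gene symbol: 26 integrin chains and 10 laminin chains. The integrin chains were divided by known partner and ligand. Of these, 18 are chains of stromal and epithelial cells, 7 are chains that blood cells of the leukocyte lineages use, and Itga2b is the platelet alpha chain. All 36 symbols had a row in every library. The study asked what loss of the transcription factor Sp3 does to fetal lung mesenchyme, and 11 libraries were sequenced from primary mesenchymal cells of mouse lungs at embryonic day 15. The cells had been freed with collagenase, selected by fast attachment to plastic and passaged in culture, so each library is a cultured adherent population, and the labels do not say whether each came from 1 embryo. There were 4 Sp3+/+ (wild-type) libraries, 4 Sp3+/- (heterozygous) libraries and 3 Sp3-/- (null) libraries. No other allele or treatment is given in the labels for any group.

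Integrins are paired receptors, each built from an alpha and a beta chain, that hold cells to the extracellular matrix and pass signals through adaptor proteins at the cell membrane. The alpha chain largely sets the ligand: some pairs bind laminin, some collagen, some the Arg-Gly-Asp (RGD) sequence of fibronectin, vitronectin or nephronectin, and the leukocyte pairs built on Itgb2 bind counter-receptors on other cells. Laminins are trimers of an alpha, a beta and a gamma chain that form the sheet of the basement membrane, and in the developing lung both the epithelium and the mesenchyme supply chains to that sheet.

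Sp3 itself was read first as a check of the genotype labels. It lay between 5.92 and 6.75 log2 CPM in Sp3+/+ libraries, between 5.70 and 6.16 in Sp3+/- libraries and between 3.86 and 4.24 in Sp3-/- libraries, where log2 CPM is the log2 of each gene's counted reads scaled to library size (CPM) after scaling, with a prior count of 2. The libraries held 9849111 to 59297495 reads on genes. Reads on genes that lymphocytes define themselves by summed to less than 1 CPM in every library, whereas 10 lung mesenchyme markers summed to 7100 to 22300 CPM. Of 8 epithelial markers Sftpc did not pass 4.51 CPM and Nkx2-1 did not pass 1.16 CPM, while the keratin Krt18 reached 104 CPM. The sample titles carry a further mark: 6 of the 11 end in a 2 or a 3, and 5 have no such suffix. All 3 Sp3-/- libraries are without a suffix, and so are the Sp3+/+ library 468-4 and the Sp3+/- library 697-4. The file name of 697-4 carries a suffix that its title lacks, and the title was used. What the suffix stands for is not given in the sources used here, and its part in the results was tested only as far as these 2 control libraries allow.

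In Sp3-/- cells 2 of the 4 collagen-binding chains and the RGD-binding chain Itga8 fell, 2 of the 4 laminin-binding chains rose, and of the laminins Lama2 fell and Lama3 rose. In Sp3-/- against Sp3+/+ libraries, 32 of the 36 chains passed the filter on low counts and 8 differed at an adjusted p below 0.05 (edgeR quasi-likelihood test, Benjamini-Hochberg adjustment over all 14025 genes tested). Itga7, Itgb4 and Lama3 were higher, and Itga1, Itga11, Itga8, Itga2b and Lama2 were lower. The 3 higher chains stand beside 8.76% of all genes tested, and the 5 lower chains beside 9.77%. The Sp3-/- values lay wholly above the Sp3+/+ values for 6 of the chains tested and wholly below them for 10, where the same held for 15.1% and 16.2% of all genes. The median log2 fold change of the chains tested was -0.06, and that of all genes tested was 0. These counts moved with the fit. With the title suffix as a covariate over all 11 libraries, 0 chains were higher (3.6% of all genes) and 2 were lower (5.8% of all genes), namely Itga8 and Lama2.

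**Figure D1:**
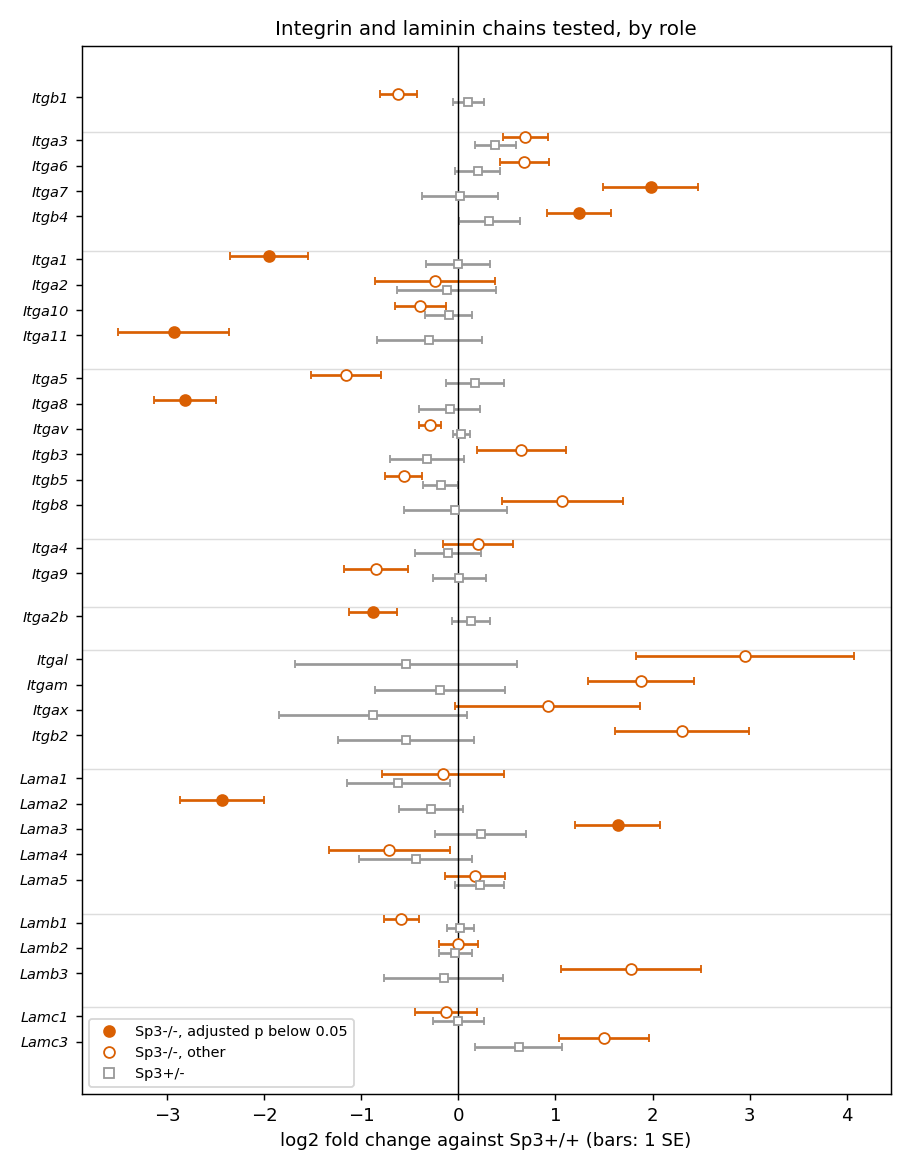
Log2 fold change (horizontal axis, bars 1 SE) of the 32 chains tested, in Sp3-/- (circles, filled where the adjusted p was below 0.05) and Sp3+/- (squares) against Sp3+/+ libraries, in blocks by role. The Sp3-/- values run from -2.93 for Itga11 to 2.95 for Itgal, and all Sp3+/- values lie between -0.88 and 0.62.

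Sp3 binds GC-rich promoter elements, and the 250 bases before the annotated start of the chains were therefore read from the RefSeq promoter table of build GRCm38.p6, the assembly on which mm10 is based. The table held 26 promoters of 23 of the 36 chains. The GC box was searched for as GGGCGG on either strand. It stood in 9 of these 26 promoters (34.6%) and in 10756 of all 32851 promoters (32.7%). The promoters of the 4 chains with the largest falls are shown first, and those of Itga5 and Lama5 follow as promoters of strongly expressed chains that hold the motif. Sequences run 5′ to 3′ on the gene's strand and end at the base before the start, and capitals mark GGGCGG or its reverse complement.
Itga8 (chr2:12301945-12302194, minus strand): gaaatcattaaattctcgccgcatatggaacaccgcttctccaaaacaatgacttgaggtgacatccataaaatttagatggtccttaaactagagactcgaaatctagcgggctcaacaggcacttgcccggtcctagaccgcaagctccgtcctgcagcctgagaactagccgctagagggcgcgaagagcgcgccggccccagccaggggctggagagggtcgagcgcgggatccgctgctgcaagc
Itga11 (chr9:62677605-62677854, plus strand): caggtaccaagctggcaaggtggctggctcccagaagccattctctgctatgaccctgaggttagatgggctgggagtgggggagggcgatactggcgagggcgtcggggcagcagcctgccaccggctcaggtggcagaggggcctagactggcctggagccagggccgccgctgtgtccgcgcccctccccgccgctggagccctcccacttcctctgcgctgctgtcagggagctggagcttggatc
Itga1 (chr13:115101965-115102214, minus strand): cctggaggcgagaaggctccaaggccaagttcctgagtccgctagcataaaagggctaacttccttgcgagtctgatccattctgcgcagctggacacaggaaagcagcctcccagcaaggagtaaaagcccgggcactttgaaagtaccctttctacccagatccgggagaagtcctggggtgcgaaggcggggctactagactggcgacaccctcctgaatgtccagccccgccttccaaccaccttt
Lama2 (chr10:27616943-27617192, minus strand): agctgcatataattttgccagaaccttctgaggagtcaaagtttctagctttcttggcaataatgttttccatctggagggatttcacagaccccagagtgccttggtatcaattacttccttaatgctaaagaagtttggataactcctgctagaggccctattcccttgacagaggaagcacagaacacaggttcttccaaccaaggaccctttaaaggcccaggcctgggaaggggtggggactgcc
Itga5 (chr15:103366792-103367041, minus strand): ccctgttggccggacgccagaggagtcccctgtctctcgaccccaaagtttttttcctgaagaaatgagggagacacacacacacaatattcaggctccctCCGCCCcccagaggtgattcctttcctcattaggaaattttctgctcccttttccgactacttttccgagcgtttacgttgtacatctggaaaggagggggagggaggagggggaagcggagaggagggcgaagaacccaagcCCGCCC
Lama5 (chr2:180225860-180226109, minus strand): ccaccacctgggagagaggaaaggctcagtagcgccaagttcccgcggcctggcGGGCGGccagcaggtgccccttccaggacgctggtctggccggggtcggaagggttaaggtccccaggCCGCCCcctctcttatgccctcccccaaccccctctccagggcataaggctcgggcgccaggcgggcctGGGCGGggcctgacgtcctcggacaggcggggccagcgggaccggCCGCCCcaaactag
None of the first 4 promoters holds the motif in this window, nor does that of Itga2b, the other chain that fell. The promoter table held none for Itga7, Itgb4 or Lama3, so the chains that rose could not be looked at. Itga5 holds it in 2 places and Lama5 in 4. Among the 16 chains that were tested, not called and listed in the table, 8 had it in at least 1 promoter. Not called does not mean unchanged here. Of these 8, Itgb1, Itga5, Itgb5 and Lamb1 had null values wholly below the Sp3+/+ values, and Itga3 wholly above them. Itga4, Itgam and Lama5 overlapped. Among the uncalled chains without the motif, Itgav also lay wholly below. A link between the motif and the falls was not tested. With the shorter core GGCGG in its place, which every GGGCGG contains, the promoters of Itga1 and Itga11 each hold 2 matches, those of Itga8 and Lama2 hold 0, and at least 1 match stands in 17 of the 26 promoters of the chains (65.4%) and in 45.1% of all promoters. These matches describe letters in a window and were not set against any measurement of binding.

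Among the collagen-binding integrins, Itga11 and Itga1 fell in Sp3-/- cells by the widest margins of the group. Itga11, the fibrillar collagen receptor chain of fibroblasts, read 5.52, 6.97, 7.47 and 6.53 log2 CPM in Sp3+/+ libraries, 6.95, 6.47, 6.95 and 4.55 in Sp3+/- libraries, and 3.02, 4.57 and 3.50 in Sp3-/- libraries. The Sp3-/- values lay below all Sp3+/+ values, and the highest of them, 4.57 in library 697-2, lay level with the Sp3+/- library 697-4. The log2 fold change from Sp3+/+ to Sp3-/- was -2.93 (SE 0.57, adjusted p = 0.0192, edgeR), a level 7.63-fold lower. With the suffix covariate it was -1.46 (adjusted p = 0.0778), past the threshold no longer. Itga1, which favours collagen of basement membranes and is usual on smooth muscle and fibroblasts, read 6.24, 6.51, 6.95 and 7.48 log2 CPM in Sp3+/+ libraries, 6.30, 7.06, 7.21 and 6.79 in Sp3+/- libraries, and 5.49, 4.87 and 4.09 in Sp3-/- libraries. All 3 null values lay below all 8 others. Its log2 fold change was -1.95 (SE 0.40, adjusted p = 0.0225, edgeR), and -1.48 (adjusted p = 0.0529) with the suffix covariate. The other 2 chains of the group, Itga2 and Itga10, stayed between 1.87 and 4.32 log2 CPM in all libraries, with log2 fold changes of -0.24 (SE 0.62) and -0.39 (SE 0.26) that did not pass the test and groups that overlapped. Without library 697-5 the adjusted p of Itga11 was 0.0538, and that of Itga1 rose to as much as 0.0875 without 697-1, 697-2 or 697-3.

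The markers of the cultured cells themselves moved beside these falls. Of 10 lung mesenchyme markers 4 fell (Pdgfrb, Tbx5, Foxf1 and Vim) and 0 rose, with the sum of all 10 at 13100 to 22100 CPM in Sp3+/+, 14900 to 22300 in Sp3+/- and 7100 to 19100 in Sp3-/- libraries. Of 6 smooth muscle markers 5 fell, and their sum was 11600 to 25400, 14700 to 21000 and 4010 to 5010 CPM in the same order. In such whole cultures fewer cells of a type and less RNA per cell cannot be told apart, and the part of these cell types in the values of the chains was not tested.

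The RGD-binding chains held the change with the smallest adjusted p of all 32 chains tested. Itga8, the alpha chain of the nephronectin receptor and a marker of embryonic mesenchyme and smooth muscle, read 7.41, 7.67, 8.50 and 8.28 log2 CPM in Sp3+/+ libraries, 7.58, 8.23, 8.47 and 7.17 in Sp3+/- libraries, and 4.96, 5.55 and 5.10 in Sp3-/- libraries. The gap between the highest null library and the lowest of the other 8 was wider than the whole spread among the null libraries. The log2 fold change was -2.81 (SE 0.32, adjusted p = 0.00744, edgeR), a level 7.02-fold lower. It was lower at an adjusted p below 0.05 in 17 of 18 alternative fits, the leaving out of each library included, and remained so with the suffix covariate (log2 fold change -2.06, adjusted p = 0.00606). The exception was the fit of the 5 libraries without a suffix, in which 0 of 13825 genes passed and Itga8 gave -2.20 (adjusted p = 0.275).

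Itga5, the fibronectin receptor chain, read 8.93, 9.03, 8.90 and 10.2 log2 CPM in Sp3+/+ libraries, 9.38, 9.15, 9.66 and 9.91 in Sp3+/- libraries, and 7.89, 8.41 and 8.31 in Sp3-/- libraries. The null values again lay below all others, but the difference from Sp3+/+ missed the threshold (log2 fold change -1.16, SE 0.36, adjusted p = 0.0618, edgeR), while that from Sp3+/- passed it (-1.33, SE 0.33, adjusted p = 0.0185). The fits differ in the libraries used, and with all 11 in a single fit Itga5 was called lower against Sp3+/+ too. Library 697-3 was the high one among the Sp3+/+ libraries. Itgav, the alpha chain shared by the vitronectin receptors and the activators of latent TGF-beta, was the steadiest: 8.85, 8.91, 8.97 and 9.02 log2 CPM in Sp3+/+ libraries, 8.82, 8.93, 9.12 and 9.02 in Sp3+/- libraries, and 8.80, 8.70 and 8.43 in Sp3-/- libraries. All null values were the lowest, by a small step (log2 fold change -0.29, SE 0.11, adjusted p = 0.0977 against Sp3+/+ and -0.32, SE 0.10, adjusted p = 0.039 against Sp3+/-, edgeR). Itgav was also called lower against Sp3+/+ in the single fit of all 11 libraries.

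Of the beta chains that pair with Itgav, Itgb5 read 8.55, 8.60, 8.90 and 8.62 log2 CPM in Sp3+/+ libraries, 8.60, 8.67, 8.63 and 8.02 in Sp3+/- libraries, and 7.66, 8.24 and 8.35 in Sp3-/- libraries. The null values lay below the Sp3+/+ values and on both sides of the Sp3+/- library 697-4, with a log2 fold change from Sp3+/+ of -0.56 (SE 0.19, adjusted p = 0.077, edgeR). Itgb3 and Itgb8 overlapped between the groups and were spread widely among the null libraries, 4.46 to 6.31 and 0.34 to 3.42 log2 CPM, and neither passed the test (0.65, SE 0.46, and 1.07, SE 0.62). Itgb6, the epithelial partner, had at most 18 reads in any library and was not tested.

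The laminin-binding chains were the one stromal group in which all members tested had a higher estimate. Itga7, the muscle-type laminin receptor chain (chr10:128933421-128958286 of GRCm38.p6), read 5.53, 3.80, 3.44 and 4.23 log2 CPM in Sp3+/+ libraries, 4.35, 4.29, 4.57 and 4.82 in Sp3+/- libraries, and 6.54, 6.06 and 6.74 in Sp3-/- libraries. The null libraries were above all others, and the nearest was the Sp3+/+ library 468-4. The log2 fold change was 1.98 (SE 0.49, adjusted p = 0.0341, edgeR), a level 3.94-fold higher, and 1.31 (adjusted p = 0.0583) with the suffix covariate. A set of 5 skeletal muscle markers summed to at most 0.342 CPM in any library, and 5 of the 6 smooth muscle markers fell, as given above. The source of the Itga7 reads was not tested.

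Itgb4, the hemidesmosome chain that pairs with Itga6 in epithelia (chr11:115974725-116008412), read 3.55, 2.90, 2.55 and 2.72 log2 CPM in Sp3+/+ libraries, 3.32, 3.20, 2.75 and 3.80 in Sp3+/- libraries, and 4.07, 3.66 and 4.74 in Sp3-/- libraries. The null values were above the Sp3+/+ values, and 1 of them lay below the Sp3+/- library 697-4. The log2 fold change was 1.24 (SE 0.33, adjusted p = 0.0414, edgeR), and 0.67 (adjusted p = 0.223) with the suffix covariate. Its partner Itga6 read 6.64, 6.21, 5.50 and 5.88 log2 CPM in Sp3+/+ libraries, 6.44, 6.15, 5.92 and 6.66 in Sp3+/- libraries, and 6.81, 6.99 and 6.57 in Sp3-/- libraries. Here the groups overlapped (log2 fold change 0.68, SE 0.25, adjusted p = 0.0919). Itga3, the main laminin receptor alpha chain of lung epithelium, read 6.89, 7.22, 6.68 and 6.87 log2 CPM in Sp3+/+ libraries, 7.50, 7.42, 6.92 and 7.36 in Sp3+/- libraries, and 8.13, 7.33 and 7.26 in Sp3-/- libraries. The null values lay above the Sp3+/+ values, with a log2 fold change of 0.69 (SE 0.23, adjusted p = 0.0681, edgeR). The null value 8.13 was also above all Sp3+/- values, while 7.33 and 7.26 lay among them. The calls of Itga7 and Itgb4 held when 468-4 was left out and were lost when any other of the 7 libraries was, with adjusted p up to 0.0932 and 0.107.

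Markers of other cell types moved beside these chains. The sum of 8 epithelial markers was 18.5 to 36.1 CPM in Sp3+/+, 24.3 to 35.9 in Sp3+/- and 57.9 to 157 in Sp3-/- libraries, most of it Krt18 and Krt8, and 3 of the 7 markers tested rose (Epcam, Cdh1 and Krt18), although Epcam did not pass 1.20 CPM. The sum of 6 mesothelial markers was 552 to 1220, 1160 to 2100 and 1250 to 4620 CPM in the same order, and Msln and Wt1 rose. The part of these cells in the values of Itgb4, Itga3 and the laminin chains was not tested.

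Itgb1, the common beta chain that pairs with all 4 collagen-binding alpha chains and with most of the laminin-binding and RGD-binding ones, was the most abundant integrin chain per length. It read 11.74, 11.50, 11.68 and 12.06 log2 CPM in Sp3+/+ libraries, 11.53, 11.87, 12.03 and 11.99 in Sp3+/- libraries, and 10.93, 11.07 and 11.38 in Sp3-/- libraries. The null libraries were the lowest 3 of the 11. The difference missed the threshold against Sp3+/+ (log2 fold change -0.62, SE 0.19, adjusted p = 0.0615, edgeR) and passed it against Sp3+/- (-0.72, SE 0.18, adjusted p = 0.0177). The first fit used 7 libraries and the second all 11. With all 11 libraries in a single fit, Itgb1 was called lower against Sp3+/+ as well.

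**Figure D2:**
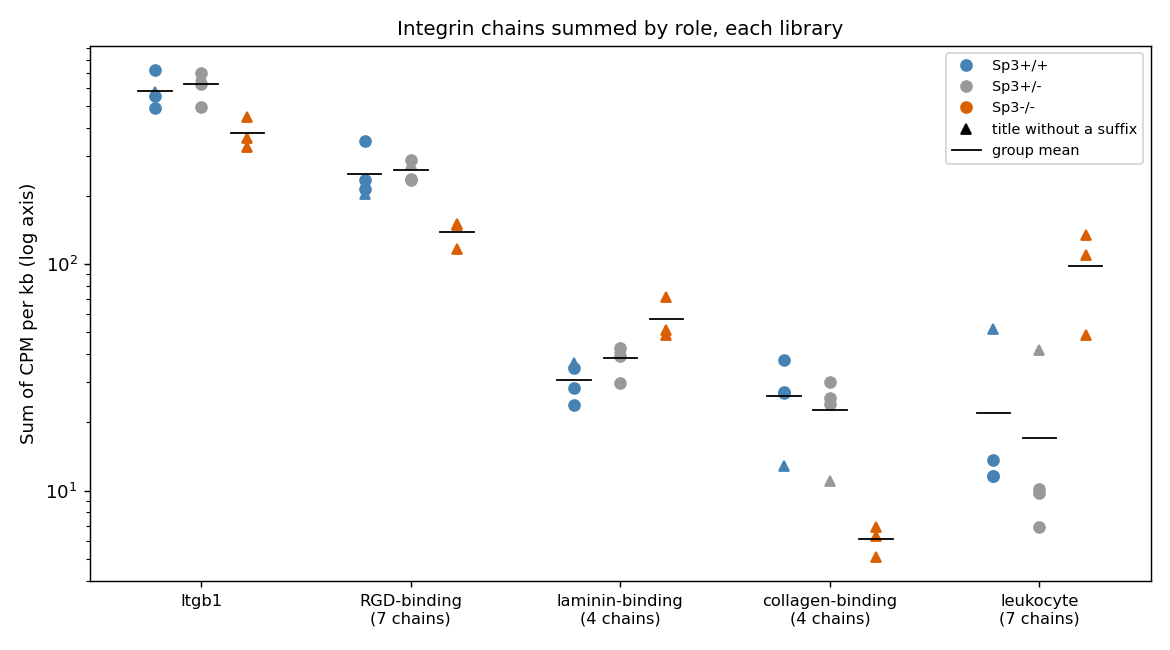
Sum of CPM per kilobase of exon (vertical, log axis) over the integrin chains of each role in each library, with group means as lines and libraries without a title suffix as triangles. The collagen-binding sum is below 7 in all 3 Sp3-/- libraries and at least 11 in the other 8, and the leukocyte sum is also high in 1 Sp3+/+ and 1 Sp3+/- library.

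Per kilobase of exon, which allows levels of different chains to be set side by side, the make-up of the integrins differed as follows. Itgb1 stood at 582 ± 96.9 CPM per kb (SD, n = 4) in Sp3+/+, 625 ± 91.6 (n = 4) in Sp3+/- and 377 ± 61.3 (n = 3) in Sp3-/- cells. The 4 collagen-binding chains together gave 26.2 ± 10.3, 22.7 ± 8.20 and 6.08 ± 0.92 CPM per kb, and the 7 RGD-binding chains 251 ± 67.2, 260 ± 27.8 and 139 ± 18.9. The 4 laminin-binding chains gave 30.8 ± 5.83, 38.5 ± 5.91 and 57.1 ± 12.5. In Sp3+/+ cells the collagen-binding and laminin-binding sums thus overlapped in range, from 12.8 to 37.8 and from 23.8 to 36.4. They were not close in every library, at 12.8 and 36.4 in 468-4 and at 37.8 and 23.8 in 697-1. In Sp3-/- cells the ranges were far apart, from 5.08 to 6.89 and from 48.6 to 71.4. In the Sp3+/- library 697-4 the collagen-binding sum was the lowest of its group and far below the laminin-binding sum. Both controls without a title suffix, 468-4 and 697-4, thus leaned toward the null pattern without reaching its ranges. The part of the suffix in this contrast was not tested. Among single alpha chains, Itga5 was the most abundant in each genotype, at 125 ± 63.4, 141 ± 32.3 and 56.1 ± 10.3 CPM per kb, and Itgav stood at 39.8 ± 2.04, 40.8 ± 3.56 and 32.6 ± 4.21. In Sp3+/+ cells Itga8 (24.2 ± 8.31), Itga3 (21.0 ± 3.32) and Itga11 (17.8 ± 8.97) came next and did not differ beyond their spread. In Sp3-/- cells Itga3 (34.0 ± 12.2), Itgav and the leukocyte chain Itgam (31.5 ± 16.7) lay together, and Itga8 (3.46 ± 0.763) and Itga11 (2.32 ± 1.34) were far below them. This order rests in part on the length used. With the longest transcript in place of the union of exons, Itgav came to 66.4 ± 3.41 CPM per kb in Sp3+/+ cells, and in Sp3-/- cells it stood at 54.4 ± 7.02, above Itga3 at 38.5 ± 13.8 and Itgam at 33.7 ± 17.9. The lengths come from a later annotation of the mouse genome by gene symbol and are the same for all groups.

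Itga4 and Itga9, alpha chains that bind fibronectin splice forms, Vcam1 and tenascin, ranged from 2.91 to 4.94 log2 CPM in all libraries. Null and Sp3+/+ values overlapped for both, and neither passed the test (0.20, SE 0.36, and -0.85, SE 0.33). For Itga9 the null values lay below all Sp3+/- values (-0.86, SE 0.31, adjusted p = 0.0603, edgeR). DESeq2, limma-voom with a consensus correlation and edgeR with the first title number as replicate block called that difference (adjusted p = 0.0285, 0.0377 and 0.035). The block fit also called Itga9 against Sp3+/+ (-0.89, adjusted p = 0.013), and the suffix covariate fit did not (-0.66, adjusted p = 0.284). Itga2b, the platelet alpha chain, was low and lower still in null cells. It read 1.64, 1.86, 2.19 and 1.93 log2 CPM in Sp3+/+ libraries, 2.33, 1.89, 1.87 and 2.08 in Sp3+/- libraries, and 1.36, 0.90 and 0.82 in Sp3-/- libraries. The null values were the lowest, and the log2 fold change was -0.88 (SE 0.25, adjusted p = 0.0452, edgeR). This call held when 468-4 or 685-1 was left out and was lost without any 1 of the other 5, with adjusted p up to 0.158. Of the platelet markers, Gp9, Ppbp and Gp6 did not pass 0.2 CPM in any library. Pf4 rose (log2 fold change 2.08) and Gp1bb fell (-2.50).

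**Figure D3:**
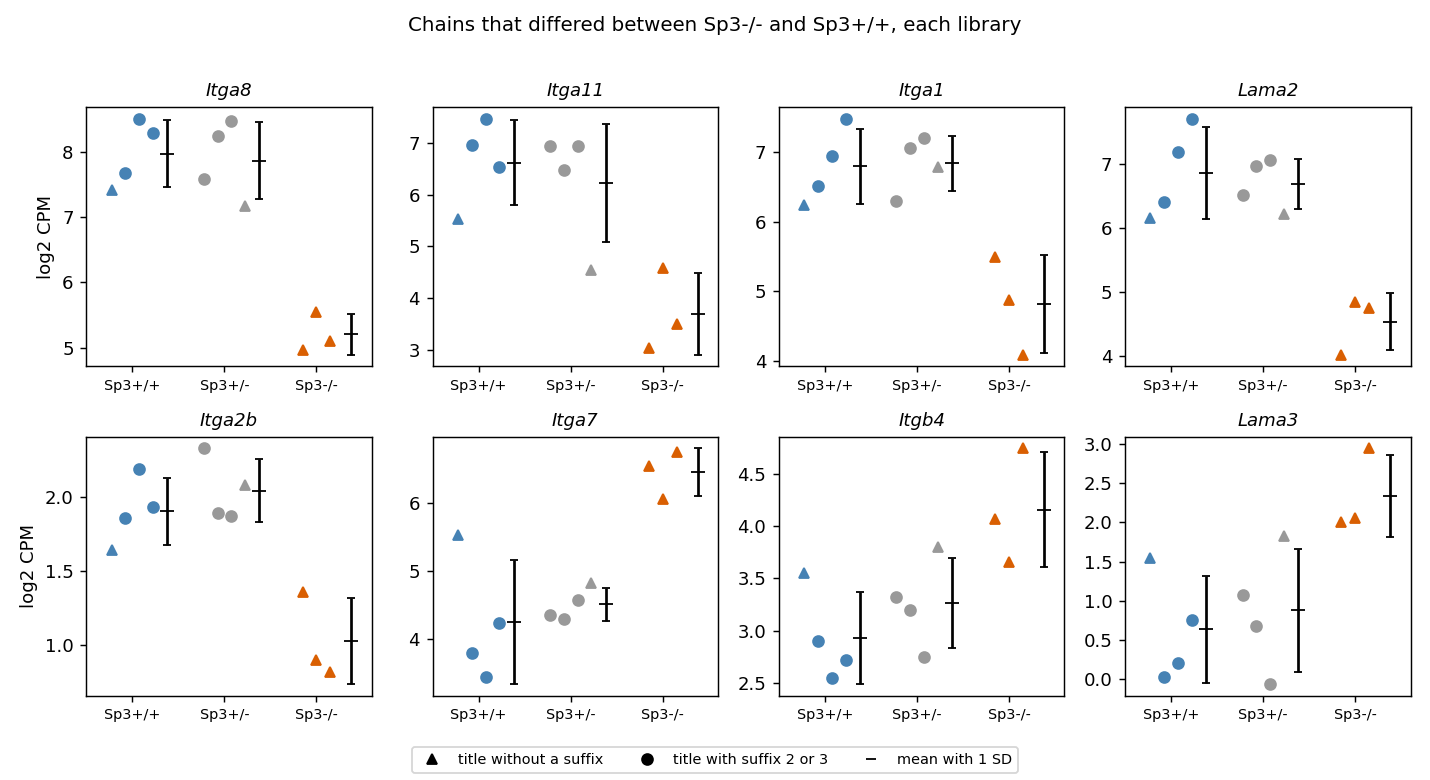
Log2 CPM (vertical axes, which do not start at 0 and differ between panels) of the 8 chains that differed between Sp3-/- and Sp3+/+ cells, in each library, with mean and 1 SD beside each group and triangles for titles without a suffix. In the upper row and for Itga2b the 3 Sp3-/- libraries are below the 4 Sp3+/+ libraries, and for Itga7, Itgb4 and Lama3 they are above them, with the Sp3+/+ triangle the nearest.

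The leukocyte integrins were a case apart. Itgb2, the beta chain shared by leukocyte integrins, read 6.59, 4.34, 4.22 and 4.36 log2 CPM in Sp3+/+ libraries, 3.61, 4.03, 3.95 and 6.0 in Sp3+/- libraries, and 6.50, 8.0 and 7.83 in Sp3-/- libraries. Itgam, the alpha chain of macrophages and granulocytes, read 6.48, 4.60, 4.81 and 5.07, then 3.52, 4.55, 4.50 and 6.61, and then 6.32, 7.97 and 7.26 log2 CPM in the same order. In both, the Sp3+/+ library 468-4 and the Sp3+/- library 697-4, the controls without a title suffix, stood with the null libraries and not with their own groups. Itgal, the leukocyte alpha chain for ICAM ligands, was at -0.86 to 0.52 log2 CPM in the 6 libraries with a suffix, at 4.12 in 468-4, at 3.52 in 697-4 and at 4.86 to 5.65 in the null libraries. Itgax, an alpha chain of dendritic cells and some macrophages, was at -0.93 to -0.07 in the 6 libraries with a suffix, at 2.85 in 468-4, at 1.99 in 697-4 and at 1.19 to 3.10 in the null libraries. Of these 4 chains, Itgal alone had null values wholly above the Sp3+/+ values.

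None of the 4 passed the test against Sp3+/+, although their estimates were large: Itgal 2.95 (SE 1.12, adjusted p = 0.10), Itgb2 2.30 (SE 0.69, adjusted p = 0.0564), Itgam 1.88 (SE 0.55, adjusted p = 0.0519) and Itgax 0.92 (SE 0.95, adjusted p = 0.511) on the log2 scale (edgeR). Other fits called some or all of them. DESeq2 called Itgb2 and Itgam (adjusted p = 0.00196 and 0.00231), and limma-voom with a consensus correlation called Itgal, Itgb2 and Itgam (adjusted p = 0.0195, 0.0292 and 0.0355). With the first title number as replicate block edgeR called all 4, with Itgal at 5.44, Itgb2 at 3.15, Itgam at 2.38 and Itgax at 2.48 (adjusted p from 0.00238 to 0.0183). Without 468-4 all 4 passed, with Itgal at 5.42, Itgb2 at 3.27, Itgam at 2.49 and Itgax at 2.53. With the suffix covariate none did. Itgal then gave 1.43, Itgb2 1.06 and Itgam 0.66, and Itgax turned to -0.60 (adjusted p = 0.488). Itgb2 was higher in null than in Sp3+/- cells (2.82, SE 0.76, adjusted p = 0.0243). All 12 leukocyte markers were above 1 CPM in at least 1 library, and their sum followed the same libraries: 607 to 881 CPM in the 3 Sp3+/+ libraries with a suffix and 3330 in 468-4, 369 to 658 in the 3 Sp3+/- libraries with a suffix and 3060 in 697-4, and 3110, 11400 and 10600 in Sp3-/- libraries 685-1, 697-2 and 697-5. Lyz2, a lysozyme of macrophages and granulocytes, was the largest part of it. The leukocyte integrins are therefore given apart from the stromal ones. The part of leukocytes in the cultures in their values was not tested, and that of the suffix only as far as 468-4 and 697-4 allow. The other 3 leukocyte chains, Itgad, Itgae and Itgb7, the latter pair typical of lymphocytes of epithelia, had at most 4, 22 and 43 reads in any library and were not tested in null against Sp3+/+ cells. Itgb7 was tested in null against Sp3+/- cells. Its estimate there was lower, opposite in sign to that of Itgb2, and did not pass (-1.40, SE 0.56, adjusted p = 0.0889, edgeR).

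**Figure D4:**
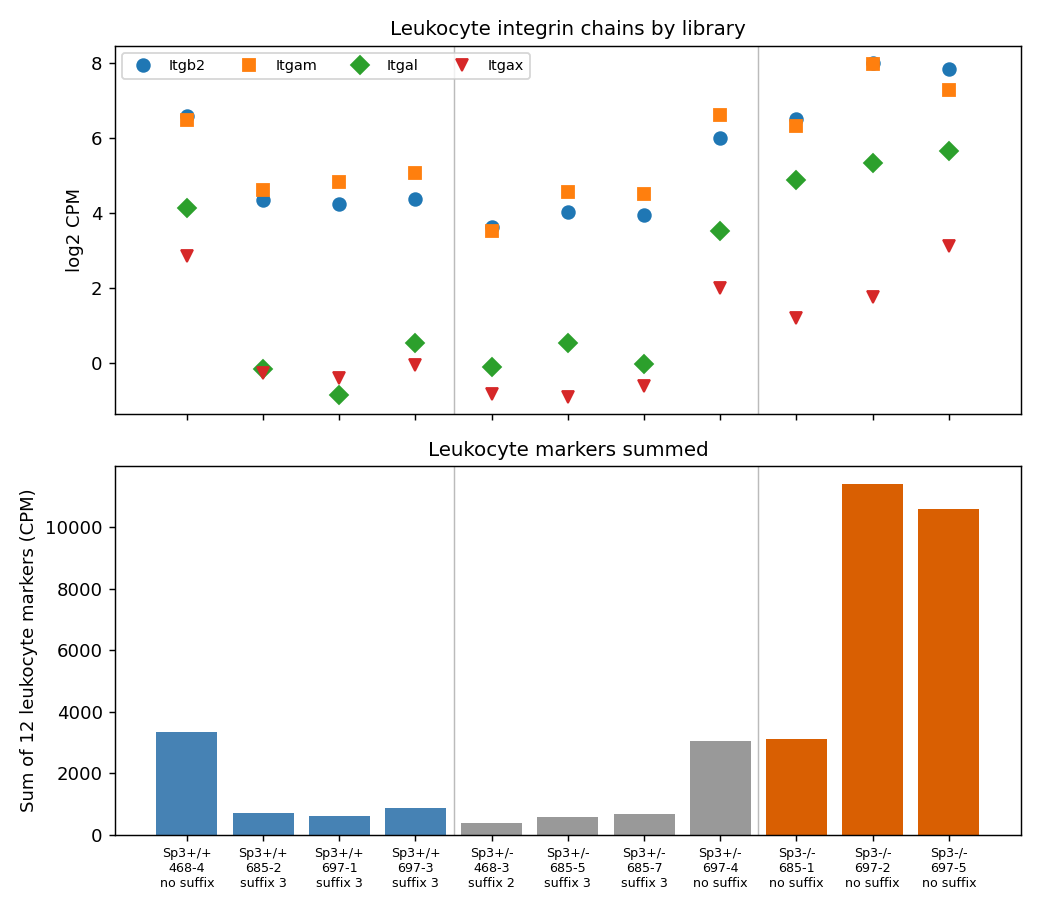
Upper panel, log2 CPM of Itgb2, Itgam, Itgal and Itgax in each of the 11 libraries, and lower panel, the sum of 12 leukocyte markers in CPM, with genotype, library and title suffix on the horizontal axis. The 5 libraries without a suffix are high in both panels, with marker sums of 3060 to 11400 CPM against 369 to 881 in the other 6.

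Of the laminin alpha chains, Lama2 fell and Lama3 rose. Lama2, the chain of muscle and mesenchymal basement membranes whose loss causes a muscular dystrophy, read 6.15, 6.41, 7.19 and 7.71 log2 CPM in Sp3+/+ libraries, 6.52, 6.97, 7.06 and 6.22 in Sp3+/- libraries, and 4.02, 4.84 and 4.75 in Sp3-/- libraries. All 3 null values lay more than 1 log2 unit below all 8 others. The log2 fold change was -2.43 (SE 0.43, adjusted p = 0.0157, edgeR), a level 5.38-fold lower, and -1.69 (adjusted p = 0.0293) with the suffix covariate. Without library 697-2 its adjusted p was 0.0598. Lama3, an alpha chain of epithelial basement membranes, read 1.54, 0.03, 0.21 and 0.76 log2 CPM in Sp3+/+ libraries, 1.08, 0.68, -0.06 and 1.82 in Sp3+/- libraries, and 2.00, 2.06 and 2.94 in Sp3-/- libraries, from 14 to 182 reads in a library. The null values were above all others by a narrow step from 697-4, with a log2 fold change of 1.64 (SE 0.44, adjusted p = 0.0423). It was no longer called when any library but 468-4 was left out, with adjusted p up to 0.109, nor with the suffix covariate (0.73, adjusted p = 0.30).

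The remaining alpha chains did not pass the test. Lama5, the main alpha chain of the lung basement membrane, read 8.07, 8.64, 8.60 and 8.67 log2 CPM in Sp3+/+ libraries, 8.89, 8.91, 8.69 and 8.44 in Sp3+/- libraries, and 9.36, 8.32 and 8.10 in Sp3-/- libraries. Lama4, a chain of vessel and mesenchymal membranes, read 4.73, 6.08, 6.37 and 4.74, then 5.32, 5.80, 5.47 and 3.52, and then 5.67, 5.07 and 3.23 log2 CPM in the same order. Both overlapped between genotypes, although Lama5 in 685-1 was above all other libraries and Lama4 in 697-5 below them, with log2 fold changes of 0.17 (SE 0.31) and -0.71 (SE 0.62). Lama1, the chain of the earliest embryonic membranes, ranged from 0.55 to 3.68 log2 CPM (-0.16, SE 0.63).

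Among the beta and gamma chains none differed from Sp3+/+ cells at an adjusted p below 0.05. Lamb1, the beta chain of embryonic laminins, read 9.33, 9.54, 9.62 and 9.92 log2 CPM in Sp3+/+ libraries, 9.61, 9.57, 9.60 and 9.78 in Sp3+/- libraries, and 9.24, 9.14 and 8.66 in Sp3-/- libraries. The null values were the lowest of all, by a narrow step from 468-4 (log2 fold change -0.59, SE 0.18, adjusted p = 0.062, edgeR), and passed the test against Sp3+/- (-0.61, SE 0.16, adjusted p = 0.0205). With all 11 libraries in a single fit, Lamb1 was called lower against Sp3+/+ as well. Lamb2, the beta chain of muscle and mature membranes, read 7.49, 7.54, 7.62 and 7.36, then 7.65, 7.52, 7.49 and 7.25, and then 7.99, 7.25 and 7.16 log2 CPM, with an estimate of 0.00 (SE 0.20). Lamc1, the gamma chain of most laminins, read 8.58, 8.99, 9.08 and 9.12, then 9.07, 9.11, 9.01 and 8.61, and then 9.40, 8.85 and 7.90 log2 CPM, with an estimate of -0.13 (SE 0.32). For both chains the null libraries surrounded the others, with 685-1 the highest and 697-5 the lowest.

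Lamb3, which joins Lama3 in the laminin of hemidesmosomes, read 0.14, -0.88, -2.42 and -1.72 log2 CPM in Sp3+/+ libraries, -1.25, -1.18, -1.03 and -0.60 in Sp3+/- libraries, and 1.42, -0.23 and 0.74 in Sp3-/- libraries, from 3 to 93 reads. It overlapped with the Sp3+/+ libraries through 468-4 (log2 fold change 1.78, SE 0.72, adjusted p = 0.113) and was higher than in Sp3+/- cells (1.93, SE 0.62, adjusted p = 0.0447, edgeR). That call held in 5 of 15 alternative fits. It was lost when any of the 7 libraries but 697-2 was left out, with adjusted p up to 0.174, and with the suffix covariate (0.90, adjusted p = 0.463). Lamc3, a gamma chain of restricted use, ranged from -0.42 to 2.24 log2 CPM, with null values above the Sp3+/+ values (1.5, SE 0.46, adjusted p = 0.0602).

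Per kilobase of exon, Lama5 made up most of the laminin alpha chain RNA in every library, and Lama2 most of the rest in Sp3+/+ cells. Lama5 was 74.3% ± 4.57 (SD, n = 4) of the alpha chain sum in Sp3+/+, 80.8% ± 3.74 (n = 4) in Sp3+/- and 88.3% ± 3.96 (n = 3) in Sp3-/- cells. Lama2 was 16.0% ± 5.53, 12.8% ± 2.38 and 3.96% ± 2.21. The lowest Sp3+/+ share of Lama2 was 10.6% and the highest Sp3-/- share 5.62%. For Lama5 the null shares lay above the Sp3+/+ shares, the highest of which was 78.7% in 468-4. The lowest null share of Lama5, 83.9% in 697-2, lay below the 84.7% of the Sp3+/- library 697-4. The sum over the 5 alpha chains itself was 43.4 ± 9.30, 46.5 ± 7.55 and 40.9 ± 19.1 CPM per kb, and the 3 null libraries ranged from 26.8 to 62.6 around the controls. Lamb1 was 70.7% ± 4.35, 71.7% ± 3.37 and 62.2% ± 5.27 of the beta chain sum, and Lamb2 nearly all of the remainder. Null and Sp3+/+ shares of Lamb1 overlapped, at 67.8% in 697-2 and 66.9% in 468-4. Lamc1 was at least 99.1% of the gamma chain sum in every library. The choice of transcript length matters here: with the longest annotated transcript in place of the union of exons, Lama2 came to 24.3% and 6.73% and Lama5 to 61.6% and 81.8% in Sp3+/+ and Sp3-/- cells, with the same direction.

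**Figure D5:**
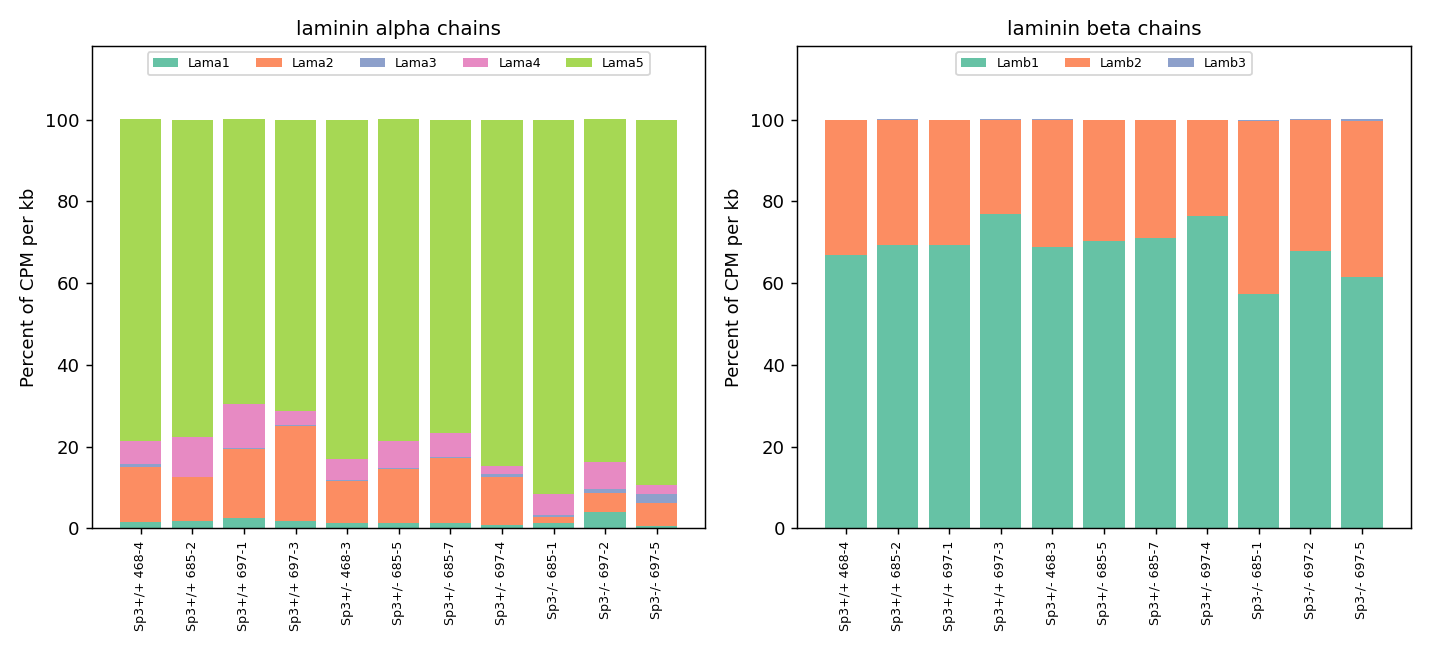
Share of each chain in the summed CPM per kilobase (vertical axis, percent) of the laminin alpha chains (left) and beta chains (right) in each library. Lama2 takes 10.3% to 23.4% in the 8 Sp3+/+ and Sp3+/- libraries and 1.45% to 5.62% in the 3 Sp3-/- libraries.

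In Sp3+/- against Sp3+/+ cells no chain differed. Of 33 chains tested, 0 passed the threshold in edgeR, in DESeq2 or in limma-voom, and 0 had an unadjusted p below 0.05, where 0% of the 14130 genes tested were called in either direction. Log2 fold changes lay between -0.88 (Itgax) and 0.62 (Lamc3), and the smallest unadjusted p was 0.0954 for Itga3 (log2 fold change 0.38, SE 0.21). Itga8, Itga11, Itga1 and Lama2, which fell in null cells, gave -0.09 (SE 0.31), -0.30 (SE 0.54), 0.00 (SE 0.33) and -0.28 (SE 0.33), and Itga7 gave 0.02 (SE 0.39). The standard errors ran from 0.09 to 1.14, so that a difference of the size seen for Itgal or Itgb2 could go undetected between these groups.

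In Sp3-/- against Sp3+/- cells 12 of 33 chains differed, 3 higher (beside 13% of all 14130 genes tested) and 9 lower (beside 12.5%). This comparison and that with Sp3+/+ share the null libraries, so their values are given side by side. Itga8 gave -2.73 (SE 0.37), Itga11 -2.64 (SE 0.65), Itga1 -1.94 (SE 0.38), Lama2 -2.16 (SE 0.39) and Itga2b -1.01 (SE 0.22), all lower in both comparisons, and Itga7 gave 1.95 (SE 0.43), the one chain higher in both (edgeR, adjusted p from 0.00195 to 0.017). The other calls were Itgb1, Itga5, Itgav and Lamb1, lower, and Itgb2 and Lamb3, higher, with the values given above. This comparison was fitted on all 11 libraries and that with Sp3+/+ on 7, so the counts of calls are not matched. In the single fit of all 11, 6 chains were higher and 9 lower against Sp3+/+. Among them were Itgb1, Itga5, Itgav and Lamb1, lower, and Itgb2, higher, but not Lamb3. Itgb4 and Lama3, called against Sp3+/+, gave 0.92 (SE 0.33, adjusted p = 0.0659) and 1.40 (SE 0.50, adjusted p = 0.0616) here. With the suffix covariate, Itga1, Itga8 and Lama2 remained lower and 0 chains were higher, and Itga11 gave -0.95 (adjusted p = 0.245) and Itga7 1.13 (adjusted p = 0.122).

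A further pair of lists give the partners of these chains. Of 26 cytoplasmic adaptors that tie integrins to actin, 25 were tested in null against Sp3+/+ cells, and 3 rose and 7 fell. The 3 that rose were Fermt3 (log2 fold change 2.31), Parvg (2.15) and Ptk2b (1.54). Fermt3 and Parvg are the kindlin and parvin of blood cells, and both were high in 468-4 and 697-4 as well, at 5.15 and 4.91 log2 CPM for Fermt3 against 2.06 to 3.18 in the libraries with a suffix. The 3 largest falls were those of Tln2 (-0.97), Parva (-0.93) and Fermt2 (-0.87), a talin, a parvin and a kindlin. The other talin, Tln1, named here after its values were seen, stood at 9.83 to 10.25 log2 CPM in all libraries, with a log2 fold change of -0.05 (SE 0.14, adjusted p = 0.83, edgeR). Of 27 ligands and basement membrane partners, 24 were tested, and 0 rose and 6 fell. Postn, the periostin of fibroblast matrix, gave -2.26 (SE 0.51), Tnc, the tenascin that Itga8 and Itga9 pairs bind, -2.18 (SE 0.41), and Smoc1, a basement membrane protein, -2.16 (SE 0.53) on the log2 scale, with adjusted p of 0.027, 0.0174 and 0.0329 (edgeR). Smoc1 was also low in the controls without a suffix, at 1.00 log2 CPM in 468-4 and -0.22 in 697-4. It stood at -0.82 to 0.76 in the null libraries and at 1.85 to 3.42 in the libraries with a suffix. Both lists were chosen with earlier results of these data known, and their counts stand beside the same 8.76% higher and 9.77% lower among all genes.

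Differences of the 8 chains called against Sp3+/+ were also read within samples that share the first title number, whose meaning is not given. The null and Sp3+/+ values of these 8 chains do not overlap, so the sign within any subset of these libraries was fixed beforehand. Only the sizes are given here. Among samples numbered 685 (1 null, 1 Sp3+/+ library) the difference of log2 CPM was -2.71 for Itga8, -3.95 for Itga11, -1.02 for Itga1, -2.39 for Lama2, 2.74 for Itga7, 1.17 for Itgb4, 1.97 for Lama3 and -0.50 for Itga2b. Among samples numbered 697 (2 null, 2 Sp3+/+ libraries) it was -3.07, -2.96, -2.73, -2.66, 2.57, 1.57, 2.02 and -1.20. In both, the Sp3+/+ libraries carry the suffix and the null libraries do not. Set against 468-4, the only Sp3+/+ library without a suffix, the mean of the null libraries differed by -2.21, -1.82, -1.42, -1.61, 0.92, 0.61, 0.79 and -0.61 in the same order of chains.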

How the data were processed

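Total RNA of cultured E15 fetal lung mesenchymal cells was made into TruSeq libraries and read as 50 bp single-end reads. Per the labels and the study's methods, the authors checked reads with FastQC 0.10.1, aligned them with STAR 2.4.5a to mm10 and deposited htseq-count tables, 1 per library, of whole-number counts per gene symbol that were not normalized. The annotation, the strand setting and the HTSeq version are not given in the sources used here, so overlapping and antisense genes could share reads. Rows for reads outside genes (38.4% to 40.9% of all reads) were left out.

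Groups were taken from the genotype labels. Following the study's methods, a gene entered the fit when any library exceeded 1 CPM. Libraries were scaled by TMM and genes tested with edgeR 4.0.16 (glmQLFit, glmQLFTest, R 4.3.3) and Benjamini-Hochberg adjustment over all genes tested. The study's methods used limma-voom, which was run as an alternative (limma 3.58.1), as was DESeq2 1.42.0. Sp3-/- against Sp3+/+ was fitted on those 7 libraries, and the other comparisons on all 11. Log2 CPM used a prior count of 2. Lengths per symbol are the union of GENCODE vM39 exons, from GRCm39, and no coordinates were moved between builds. Promoters are from RefSeq (GRCm38.p6). The test of Sp3-/- against Sp3+/+ was checked on simulated data. It called 76 of 100 genes changed 4-fold and 42 of 100 changed 2-fold, so changes of this size can be missed. Values of every library are given for chains called in any comparison or with a mean above 5 log2 CPM, and the rest by range. The chains, their grouping and the other lists were chosen with earlier results of these data known. The list names Adgre1, Mymk and Tns2 were matched to the older symbols in the files. Nothing in the labels says that libraries came from separate animals, so p-values measure the spread between these samples, which may be technical. No 2 libraries of a group were alike within counting noise. Title and file name of library 697-4 disagree on the suffix, and the title was used.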

Additional observations from a re-analysis of the deposited data

Results flagged for a closer look

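In groups of 4 libraries, a single library stood apart from its group in 7 of 66 chain and genotype combinations by Dixon's test at the 95% level, which chance marks in about 1 of 20. Of these 7, 6 concern the libraries without a title suffix. In Sp3+/+ library 468-4, Itgb2 was at 6.59 log2 CPM where the nearest of the others was at 4.36, Itgax at 2.85 with the nearest at -0.07, and Lama5 at 8.07 with the nearest at 8.60. In Sp3+/- library 697-4, Itgax was at 1.99 with the nearest at -0.63, Itgb5 at 8.02 with the nearest at 8.60, and Lama1 at 1.56 with the nearest at 2.62. The remaining one was Itga5 at 10.2 log2 CPM in Sp3+/+ library 697-3, with the nearest at 9.03. The combinations are not independent, since the same libraries enter all of them.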

How the results depend on the processing

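The count of chains called in Sp3-/- against Sp3+/+ cells (3 higher, 5 lower) moved with most choices. It was 8 and 10 in DESeq2, 5 and 5 in limma-voom, 6 and 8 in limma-voom with a consensus correlation, 11 and 9 with the first title number as replicate block, 6 and 9 with all 11 libraries in a single fit, 0 and 2 with the suffix covariate and 0 and 0 in the libraries without a suffix. An alternative chosen after seeing the data, without 468-4 and 697-4, gave 10 and 10. Leaving out 1 library gave 0 to 10 higher and 2 to 7 lower: 10 and 7 without Sp3+/+ library 468-4, 1 and 5 without 685-1, 0 and 4 without 685-2, 0 and 3 without 697-1, 697-3 or 697-5, and 0 and 2 without 697-2. The share of all genes called higher and lower moved as well, to 15.5% and 15.2% in DESeq2, 14.5% and 14.2% with the block, 18.4% and 19.1% without 468-4 and 697-4 together, and 0.793% and 1.22% without 697-2, beside 8.76% and 9.77%. For Sp3-/- against Sp3+/- (3 higher, 9 lower) DESeq2, limma-voom, its correlation form and the block gave 8, 5, 5 and 5 higher and the suffix covariate 0 higher and 3 lower, and leaving out 1 library gave 1 to 7 higher (7 without 697-4) and 4 to 9 lower (4 without 697-2). Against Sp3+/+, Itga8, Itga11, Itga1 and Lama2 were lower in 17, 15, 13 and 16 of 18 alternatives. The causes were not tested.

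Signs turned only in chains that had not passed the test. With the suffix covariate and then in the libraries without a suffix, log2 fold changes were 0.48 and 0.64 (Itga2), 0.04 and 0.01 (Itga10), -0.35 and -0.38 (Itga4), -0.60 and -0.66 (Itgax), 0.79 and 0.76 (Lama1), 0.54 and 0.22 (Lama4) and 0.23 and 0.24 (Lamc1). Lamb2, near 0, gave -0.05 in both limma-voom fits and with the block, -0.01 with every gene kept and 0.00 with all 11 libraries and without 468-4 and 697-4. Lama1 gave 0.03 in limma-voom and Lama5 -0.06 with the block. Leaving out 1 library turned Lamb2 (range -0.31 to 0.14), Itga2 (-1.16 to 0.17), Lama5 (-0.31 to 0.39), Lama1 (-0.76 to 0.30), Itga4 (-0.21 to 0.48), Itgb3 (-0.17 to 0.96) and Lamc1 (-0.52 to 0.17). The title suffixes are shared by too few libraries to pair them, and the replicate block rests on the first title number (consensus correlation 0.106), which the labels do not explain. Lamb3 and Lama3 had at most 93 and 182 reads in a library.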

Other observations

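In reads on the gene, Itgal had 12 to 80 reads in the 6 libraries with a suffix, 617 in 468-4, 230 in 697-4 and 500 to 1783 in the null libraries. Endothelial markers summed to between 29.7 and 75.6 CPM in all libraries. Schwann cell and neural crest markers summed to 121 CPM in 468-4 and to between 7.65 and 41.2 CPM in the other 10 libraries, and Cdh5 and Pecam1, defining genes of endothelium, were also highest in 468-4, at 8.93 and 7.69 CPM.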
